A study of Homo sapiens with 4 samples.

Results

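Mitochondrial ribosomal protein genes were examined in TPC1, an established line from a human papillary thyroid carcinoma in which RET is rearranged with CCDC6. For 24 h the cells received BLU6864, which blocks RET selectively (RETi, n = 2 libraries), or BLU6864 together with BGJ398, an inhibitor of FGF receptors (RETi + FGFRi, n = 2 libraries). Both groups therefore carried BLU6864, and the comparison asks what changed when FGFR inhibition was added to RET inhibition. No vehicle and no BGJ398-only cells were analysed here, both groups are 1 cell line, and nothing in the labels tells whether the 2 libraries of a group were grown separately. The p-values below rest on the difference between such libraries, and that difference may be technical. The labels state the inhibitor concentration as 100 µM and the methods of the study state it in nanomolar, so its unit is uncertain. Members were the rows whose symbol is MRPL or MRPS followed by a number and at most 1 letter. The rule found 78 rows among 20372, 48 with an MRPL symbol (large subunit) and 30 with an MRPS symbol (small subunit), and these rows hold 76 symbols.

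Mitochondria carry their own ribosome, which translates the small set of mitochondrially encoded mRNAs into subunits of the respiratory chain and of ATP synthase. Its rRNAs come from mitochondrial DNA, whereas each of its proteins is encoded in the nucleus, made by cytosolic ribosomes and imported. Some of the proteins descend from bacterial ribosomal proteins and others exist only in mitochondria. Promoters of these housekeeping genes are known to hold sites for ETS factors such as GABP, for NRF1 and for YY1.

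With the FGFR inhibitor added, mitochondrial ribosomal protein mRNAs were on balance higher by a small amount. Of 75 members with enough reads to be tested, 22 rose, 2 fell (MRPS34 and MRPL4) and 51 were not called in edgeR's quasi-likelihood test at an adjusted p under 0.05. Members were thus called higher in 29.3% of cases, where 12.8% of all 12794 tested genes were, and called lower in 2.67%, where 11.3% of all tested genes were. The median log2 fold change of RETi + FGFRi over RETi was 0.17 over the members (interquartile range 0.04 to 0.32) and 0.00 over all tested genes, and 62 of the 75 members had a positive value. Changes were small, since the log2 fold changes of members ran from -0.30 to 0.59 and only 4 members passed 0.5 in size. Both RETi + FGFRi libraries lay above both RETi libraries for 47 members, 6 members lay below, and 22 overlapped. Over all tested genes 32.1% lay above and 33% below.

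**Figure D1:**
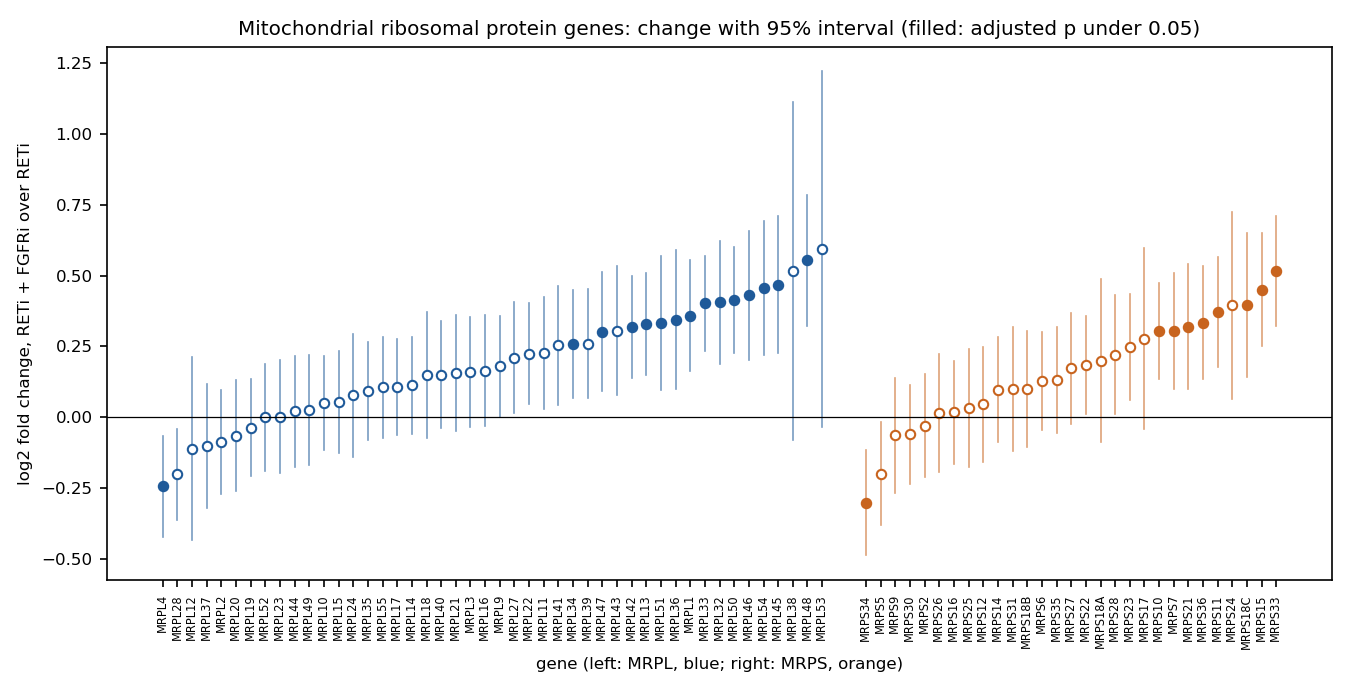
Log2 fold change of RETi + FGFRi over RETi (vertical axis) for each of the 75 tested members, sorted within MRPL (blue) and MRPS (orange), with 95% intervals and filled points for an adjusted p under 0.05. Most points lie above 0 in both subunits, and the 2 filled points below 0 are MRPL4 and MRPS34. The highest open points, MRPL53 and MRPL38, have the widest intervals, and the highest filled point is MRPL48.

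Promoter sequences are shown for 8 members that rose or fell. The first 6 were picked because they hold motif letters close to the start, and MRPS15 and MRPL4 as examples of each direction that hold none of the motifs searched, so the set does not show how common the letters are. Promoters were matched by symbol in RefSeq (GRCh38.p14), which gave 66 of the 75 tested members, and the 100 bases just before the RefSeq start are printed 5′ to 3′ on the gene's strand. MRPL48 at chr11:73787774-73787873 (plus strand), MRPL54 at chr19:3762582-3762681 (plus), MRPL33 at chr2:27771619-27771718 (plus), MRPL47 at chr3:179604639-179604738 (minus) and MRPL36 at chr5:1799838-1799937 (minus) belong to genes that rose, as does MRPS15 at chr1:36464385-36464484 (minus). MRPS34 at chr16:1773135-1773234 (minus) and MRPL4 at chr19:10251851-10251950 (plus) belong to the genes that fell. Capitals mark the letters of the ETS motif CCGGAAG, the YY1 motif AAGATGGC or the E-box CACGTG, read on either strand.
MRPL48: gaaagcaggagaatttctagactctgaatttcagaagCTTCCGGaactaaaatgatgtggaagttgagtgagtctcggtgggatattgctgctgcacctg
MRPL54: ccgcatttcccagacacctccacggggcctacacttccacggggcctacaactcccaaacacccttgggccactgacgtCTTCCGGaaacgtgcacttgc
MRPL33: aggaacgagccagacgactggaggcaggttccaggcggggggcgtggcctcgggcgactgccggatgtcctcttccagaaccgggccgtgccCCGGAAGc
MRPL47: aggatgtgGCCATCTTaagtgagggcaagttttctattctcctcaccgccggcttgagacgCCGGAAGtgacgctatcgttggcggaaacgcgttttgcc
MRPL36: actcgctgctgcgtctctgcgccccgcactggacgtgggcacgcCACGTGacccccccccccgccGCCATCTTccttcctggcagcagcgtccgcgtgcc
MRPS34: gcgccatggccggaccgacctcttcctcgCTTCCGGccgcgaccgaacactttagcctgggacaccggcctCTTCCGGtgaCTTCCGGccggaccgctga
MRPS15: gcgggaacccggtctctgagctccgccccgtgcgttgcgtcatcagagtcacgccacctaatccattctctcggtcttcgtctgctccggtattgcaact
MRPL4: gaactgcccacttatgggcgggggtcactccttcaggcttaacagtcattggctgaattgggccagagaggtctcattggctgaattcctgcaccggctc
The ETS letters begin 63 bases before the start in MRPL48, 21 in MRPL54, 8 in MRPL33 and 39 in MRPL47. MRPS34, which fell, holds the ETS letters 3 times, starting 71, 29 and 19 bases before its start. The same letters thus stand before genes of both directions, and members of both directions lack them. Of the 20 members that rose and had a matched promoter, 16 held at least 1 of the 4 motifs in the window searched, as did 27 of 44 that were not called.

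In the window from 250 bases before to 50 bases after the start, on both strands, the ETS letters were found in 27 of 66 members (40.9%), against 18.8% of the 9682 tested genes with a matched promoter. The YY1 letters were found in 20 members (30.3%), against 5.47% of all. In 15 of those 20 members a YY1 match began at or after the start, and in 5 a match began before it, whereas 21 members had an ETS match within the 100 bases before the start. The NRF1 motif (GCGCA, any base, then GCGC) was in 6 members (9.09%, against 11.6% of all) and the E-box, which MYC and other factors read, in 6 (9.09%, against 10.1%). Split by the call, the YY1 letters were in 10 of 20 members that rose and in 10 of 44 that were not called, and the ETS letters in 9 of 20 and 17 of 44. These matches describe letters in a window and are not binding sites.

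The deposited table is well covered for these genes. Libraries held 24695040 to 27457040 counts, and members had a median of 1359 normalised counts (each count divided by 1 factor per library), ranging from 39.1 for MRPL53 to 4844 in the mean over libraries. A chi-square test of the counts showed that libraries of a group differed by more than sampling noise, so none were merged. The thyroid identity of the cells was checked with PAX8, a thyroid transcription factor, which stood at 20209 ± 794 normalised counts in RETi (mean ± SD, n = 2) and 19469 ± 1667 in RETi + FGFRi, while the thyroid markers NKX2-1 and TSHR were below the filter on low counts. Of 7 tested thyroid epithelial markers, 3 fell (KRT18, KRT7 and KRT8), where 11.3% of all tested genes fell. All 7 markers of other cell types found in the table (leukocyte, endothelial, erythroid and liver) were below the filter, the highest being VWF at a group mean of at most 5.14.

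MRPL48, a mitochondria-specific protein of the central protuberance of the large subunit, showed the largest rise among the called members. Its row (ENSG00000175581, chr11:73498361-73576178, hg19) held 698 and 724 normalised counts in RETi replicates 1 and 2 and 927 and 1166 in RETi + FGFRi replicates 1 and 2. Both combination libraries were above both RETi libraries, and the combination libraries differed from each other by more than the RETi libraries did. The log2 fold change was 0.55 (SE 0.11, 95% interval 0.32 to 0.79, edgeR adjusted p = 0.0046), a 1.47-fold rise.

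MRPS33, a mitochondria-specific protein of the small subunit, rose by a similar factor. Its row (ENSG00000090263, chr7:140705854-140715028, hg19) held 1404 and 1564 normalised counts in RETi and 1986 and 2267 in RETi + FGFRi, so the groups did not overlap. The log2 fold change was 0.52 (SE 0.088, 95% interval 0.32 to 0.71, edgeR adjusted p = 0.0028), the smallest adjusted p among the members.

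MRPS15, a relative of a bacterial protein that binds the small-subunit rRNA, stood at 2519 and 2546 normalised counts in RETi and at 3137 and 3799 in RETi + FGFRi (ENSG00000116898, chr1:36921319-36930038, hg19). Its RETi libraries were nearly equal, and both combination libraries were higher. The log2 fold change was 0.45 (SE 0.090, 95% interval 0.25 to 0.65, edgeR adjusted p = 0.0061). MRPL48, MRPS33 and MRPS15 were the 3 members called in each of 9 alternative fits, which changed the normalisation, the filter, the tool or the libraries used.

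MRPL45, which sits at the exit of the nascent peptide tunnel and anchors the ribosome to the inner membrane, gave 2658 and 2547 normalised counts in RETi and 3109 and 4109 in RETi + FGFRi (ENSG00000174100, chr17:36452989-36479101, hg19). RETi + FGFRi replicate 2 was well above replicate 1, and both were above RETi. The log2 fold change was 0.47 (SE 0.11, edgeR adjusted p = 0.012), and the adjusted p was 0.0784 without RETi replicate 2. MRPL54, another mitochondria-specific protein of the large subunit, held 996 and 1095 normalised counts in RETi and 1271 and 1608 in RETi + FGFRi (ENSG00000183617, chr19:3762662-3768573, hg19). It followed the same order of libraries, with a log2 fold change of 0.46 (SE 0.11, edgeR adjusted p = 0.012) that missed the threshold only without RETi replicate 1 (adjusted p = 0.0515).

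MRPL46 and MRPS11 lie head to head, with their starts 34 bases apart in the hg19 coordinates of the table. MRPL46, of the central protuberance, held 779 and 696 normalised counts in RETi and 899 and 1093 in RETi + FGFRi (ENSG00000259494, chr15:89002707-89010650, hg19), a log2 fold change of 0.43 (SE 0.10, edgeR adjusted p = 0.014). MRPS11, a small-subunit protein with a bacterial counterpart, held 968 and 918 in RETi and 1137 and 1307 in RETi + FGFRi, a log2 fold change of 0.37 (SE 0.088, edgeR adjusted p = 0.013). Both genes of the pair rose and both kept the order RETi below RETi + FGFRi replicate 1 below replicate 2. Both calls were lost without RETi replicate 2, at adjusted p of 0.112 for MRPL46 and 0.102 for MRPS11.

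**Figure D2:**
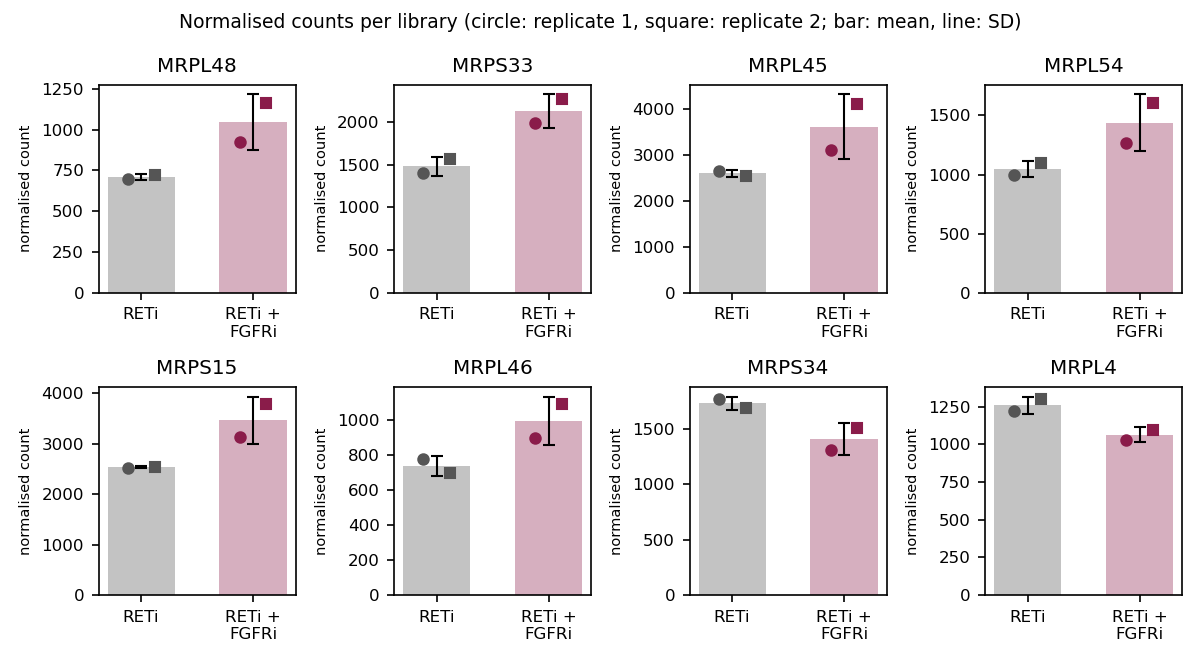
Normalised counts per library (circle, replicate 1; square, replicate 2) of the 6 members with the largest called rises and the 2 called falls, with bars for the group mean and lines for the SD (n = 2 per group). In each of the 6 rises both RETi + FGFRi points lie above both RETi points and replicate 2 lies above replicate 1. MRPS34 and MRPL4 show the opposite order of the groups.

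MRPS34, a mitochondria-specific small-subunit protein needed for the stability of that subunit, fell. Its row (ENSG00000074071, chr16:1821891-1823156, hg19) held 1774 and 1692 normalised counts in RETi and 1309 and 1508 in RETi + FGFRi, with both combination libraries below. The log2 fold change was -0.30 (SE 0.084, 95% interval -0.49 to -0.12, edgeR adjusted p = 0.026), and the call was lost, with an adjusted p of up to 0.154, on leaving out either RETi library or RETi + FGFRi replicate 1. MRPL4, the relative of a bacterial protein that lines the peptide tunnel, held 1217 and 1298 normalised counts in RETi and 1030.4 and 1097 in RETi + FGFRi (ENSG00000105364, chr19:10362577-10370721, hg19). Its log2 fold change was -0.24 (SE 0.081, edgeR adjusted p = 0.049), just inside the threshold, and only 3 of the 9 alternative fits kept the call. DESeq2 did not call MRPL4.

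The other members that rose, besides MRPS36, did so by 1.20-fold to 1.33-fold. In the large subunit they were MRPL1, MRPL13, MRPL32, MRPL33, MRPL34, MRPL36 and MRPL47, which have bacterial counterparts, and MRPL42, MRPL50 and MRPL51, which are specific to mitochondria. In the small subunit they were MRPS7, MRPS10, MRPS18C and MRPS21. MRPL34 (log2 fold change 0.26, SE 0.086) was the last inside the threshold. MRPL39 (0.0521), MRPL43 (0.0535) and MRPS23 (0.0551) were the first outside it in edgeR adjusted p, each with both RETi + FGFRi libraries above both RETi libraries.

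Per kilobase of transcript, the highest level among the 73 tested members with a known length, which leaves out MRPL45 and MRPS21, was that of MRPL33, at 4149 normalised counts per kilobase averaged over libraries. MRPL33, which has a bacterial counterpart, held 1810 and 1817 normalised counts in RETi and 2286 and 2517 in RETi + FGFRi. The log2 fold change was 0.40 (SE 0.076, edgeR adjusted p = 0.0045), and it was no longer called once a trend of counts on transcript length and GC content was removed (adjusted p = 0.852). Its interval in the table (chr2:27994584-28210954, hg19) overlaps BRE, RBKS and AC110084.1, so its reads may not all be its own. Among large-subunit proteins specific to mitochondria, MRPL45 aside, the highest level per kilobase was that of MRPL51 (3721), which rose by 0.33 on the log2 scale (SE 0.11, edgeR adjusted p = 0.044). That call was lost in 5 of 9 alternative fits, and the log2 fold change was 0.13 without RETi + FGFRi replicate 2, 0.52 without replicate 1 and 0.16 with the length and GC trend removed.

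Among the members not called, MRPL53 and MRPL38 had the largest log2 fold changes, 0.59 and 0.52. MRPL53 had 39 and 25 raw reads in RETi and 48 and 43 in RETi + FGFRi, and MRPL38 had 34 and 47 in RETi and 63 and 46 in RETi + FGFRi. At this depth the 95% intervals, -0.04 to 1.22 for MRPL53 and -0.08 to 1.11 for MRPL38, include 0 (edgeR adjusted p = 0.15 and 0.19). Both overlap another gene, MRPL53 with CCDC142 and MRPL38 with FBF1. MRPL52, MRPL23 and MRPS26 changed least, and the 95% interval of MRPL52 ran from -0.19 to 0.19.

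Of the 78 rows, 3 were below the filter on low counts and were not tested. MRPL30 has 2 rows, at most 4.79 normalised counts in any library in one (ENSG00000185414) and 0.959 in the other (ENSG00000273155). Both MRPL30 rows overlap each other and C2orf15. The second row of MRPS17 (ENSG00000249773) reached 2.01. The treatment of reads shared by such rows was not given in the sources used here.

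Large- and small-subunit genes had the same median change when split by symbol. Of 46 tested MRPL genes 14 rose (30.4%) and 1 fell, at a median log2 fold change of 0.17, and of 29 tested MRPS genes 8 rose (27.6%) and 1 fell, also with a median of 0.17. Among members that overlap no other gene the medians were 0.16 for MRPL and 0.25 for MRPS genes, and with subunits taken by place in the ribosome they were 0.17 and 0.15. Both RETi + FGFRi libraries lay above both RETi libraries for 30 MRPL and 17 MRPS genes. The summed level of MRPL genes was 2484 and 2463 CPM (counts scaled to a common library size) in RETi and 2606 and 3008 in RETi + FGFRi. For MRPS genes it was 1564 and 1569 CPM in RETi and 1643 and 1871 in RETi + FGFRi. The ratio of the MRPL to the MRPS sum was 1.59 and 1.57 in RETi and 1.59 and 1.61 in RETi + FGFRi, so the groups overlapped in this ratio. With 2 libraries against 2 an exact two-sided permutation test cannot go below p = 0.333, and no test was made of these sums.

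By place in the ribosome and ancestry, the members fell into 4 classes plus MRPS36. MRPS18A and MRPS30 were counted in the large subunit. MRPS18A and MRPS18B were counted as specific to mitochondria, although they are relatives of a bacterial protein. Among large-subunit proteins specific to mitochondria 7 of 19 rose, at a median log2 fold change of 0.31, and among those with a bacterial counterpart 7 of 29 rose and 1 fell, with a median of 0.15. In the small subunit the order was the other way round. There, 6 of 16 proteins with a bacterial counterpart rose (median 0.25), and of 10 specific to mitochondria 1 rose and 1 fell (median 0.12). Of all tested genes 12.8% rose and 11.3% fell, so the calls in that last class were near the shares of all genes. The difference between classes was not tested.

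Within the large subunit, members at the rim of the peptide exit tunnel had a median log2 fold change of 0.22, and 3 of 9 rose (MRPL34, MRPL45 and MRPL47). MRPL44, an RNase III-like protein at the same rim, held 1367 and 1363 normalised counts in RETi and 1268 and 1507 in RETi + FGFRi, which overlap. In the central protuberance 2 of 6 rose (MRPL46 and MRPL48), with a median of 0.32. These sets are small, and 12.8% of all tested genes rose. The stalk, which recruits translation factors, had a median of 0.05, and none of MRPL10, MRPL11 and MRPL12 was called by edgeR or by DESeq2 (1 of the 3, MRPL11, had an unadjusted p under 0.05). MRPL12, which also binds the mitochondrial RNA polymerase, held 202 and 211 normalised counts in RETi and 167 and 215 in RETi + FGFRi (log2 fold change -0.11, SE 0.15), and its row overlaps SLC25A10.

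Symbols do not always give a protein's place. MRPS18A, MRPS18B and MRPS18C are the 3 human relatives of bacterial S18, of which MRPS18A sits in the large subunit. MRPS18C rose from 252 and 272 normalised counts in RETi to 328 and 363 in RETi + FGFRi (log2 fold change 0.40, SE 0.12, edgeR adjusted p = 0.031). MRPS18A went from 411 and 390 to 393 and 529 and MRPS18B from 2399 and 2321 to 2279 and 2791, and neither was called. The 3 relatives thus differed in whether the groups overlapped, which was not tested as a difference. MRPS30, also placed in the large subunit, stood at 970 and 1012 in RETi and 954 and 950.4 in RETi + FGFRi (log2 fold change -0.06, SE 0.079). MRPS36, since assigned to the 2-oxoglutarate dehydrogenase complex, rose from 559 and 613 to 713 and 767 normalised counts (log2 fold change 0.33, SE 0.091, edgeR adjusted p = 0.023). The MRPS36 call was lost in 5 of 9 alternative fits, among them DESeq2 (adjusted p = 0.059), and with the length and GC trend removed its log2 fold change was 0.04 (edgeR adjusted p = 0.78). The MRPS18C call was lost in 5 of 9 fits too, DESeq2 among them (adjusted p = 0.094). MRPS12, a protein of the decoding centre, was not called (log2 fold change 0.05, SE 0.092).

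RETi + FGFRi replicate 2 carried more of the rise than replicate 1. The median log2 ratio over the members was -0.00 between the RETi libraries, with 36 of 75 members higher in replicate 2. Between RETi + FGFRi replicate 1 and RETi replicates 1 and 2 it was 0.10 and 0.11, with 51 and 52 of 75 members higher. For RETi + FGFRi replicate 2 it was 0.26 against each RETi library, with 66 and 67 members higher. Between the RETi + FGFRi libraries themselves it was 0.18, with 66 of 75 members higher in replicate 2, so the gap within the group was larger than that between replicate 1 and RETi. Over all tested genes each of these medians lay within 0.02 of 0.

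**Figure D3:**
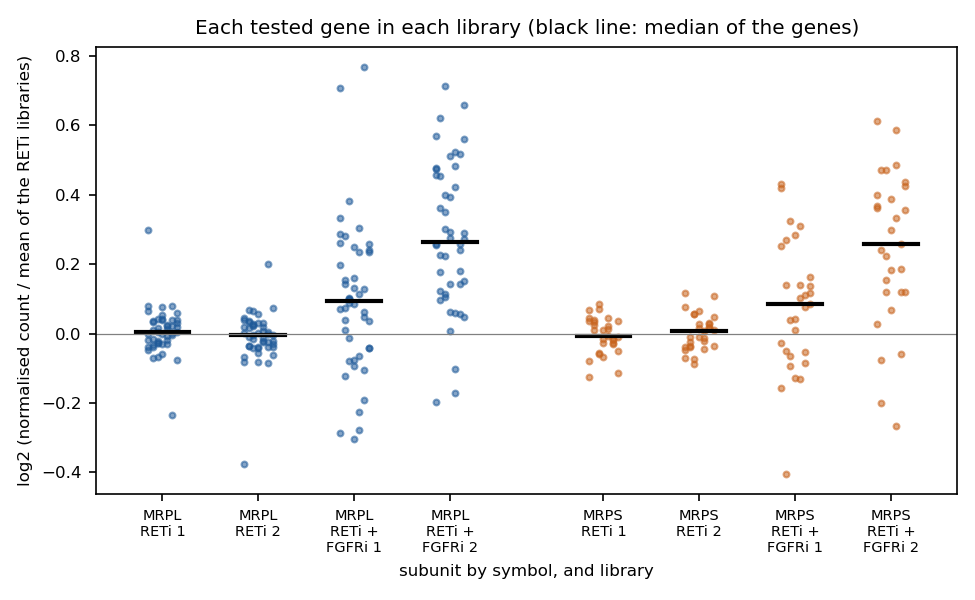
Log2 ratio of each tested gene's normalised count to the mean of the RETi libraries (vertical axis), by library, for MRPL (blue) and MRPS (orange) genes, with a line at the median. The RETi libraries sit around 0 with little spread, RETi + FGFRi replicate 1 is shifted up in both subunits and RETi + FGFRi replicate 2 more so.

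The number of calls followed these libraries. Without RETi + FGFRi replicate 1, 39 members were called higher, the same 22 among them, and without RETi + FGFRi replicate 2, 13 were, all of them among the 22. Leaving out RETi replicate 1 gave 10 and leaving out RETi replicate 2 gave 5. All-gene shares of higher calls in these fits were 15.0%, 13.2%, 6.53% and 5.30%. As a share of the tested members, the calls exceeded these all-gene shares only slightly when RETi + FGFRi replicate 2 or RETi replicate 2 was dropped. The excess was larger when a replicate 1 library was dropped. The median over the members stayed above 0 in every fit, and its lowest values were 0.09, without RETi + FGFRi replicate 2, and 0.07, once a trend on transcript length and GC content was removed in each library.

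**Figure D4:**
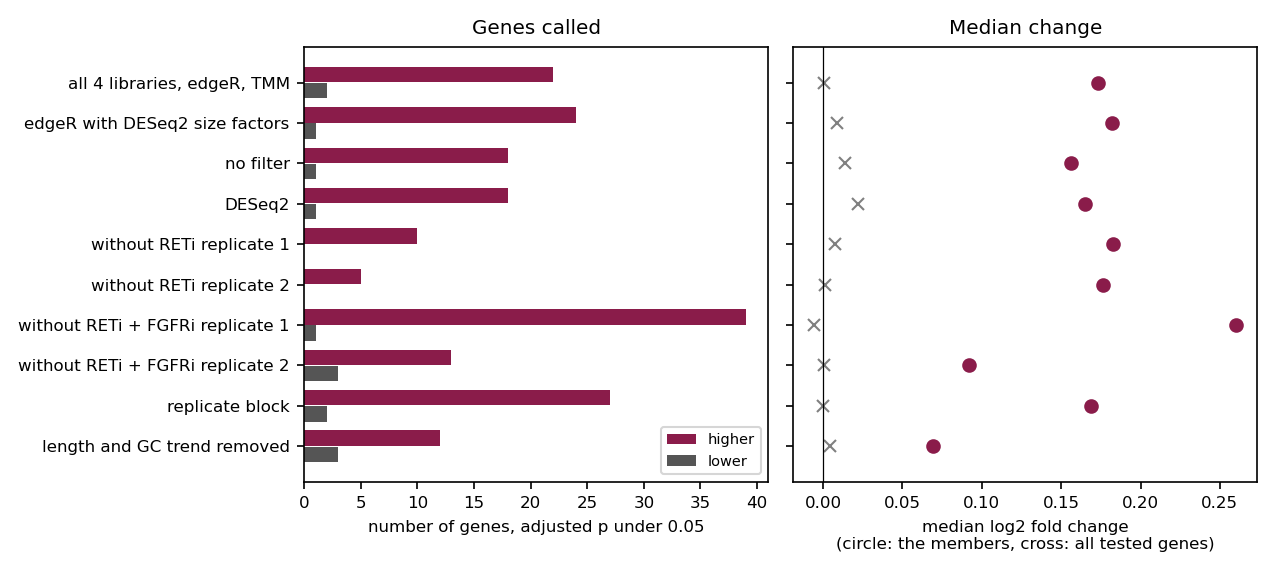
Left, number of members called higher (dark red) and lower (grey) at an adjusted p under 0.05 in the fit of all 4 libraries and in 9 alternatives. Right, median log2 fold change over the members (circles) and over all tested genes (crosses). Calls range from 5 to 39 higher, while each circle lies to the right of 0 and of its cross.

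Values also differed with GC content. Tested genes were split by GC content into 3 equal parts. In the lowest part, below 43.6% GC, all genes had a median log2 fold change of 0.08, and the 21 members there had 0.30, with 11 of them rising. In the middle part the medians were -0.02 for all genes and 0.15 for 29 members, of which 7 rose. In the highest part, above 53.9% GC, they were -0.07 for all genes and 0.08 for 23 members, of which 2 rose and 2 fell. Members were therefore above the genes of similar GC content in each part, and highest where GC was low. Their transcripts were short, with a median of 1224 bases against 3357 for all tested genes. With the trend on both properties removed, 12 of 75 members rose, 11 of them among the 22, and 3 fell. Of all tested genes, 13.1% rose and 11.9% fell in that fit. The excess of members called higher was thus smaller than before the trend was removed. Length and GC values were at hand for 73 of 75 members and not for MRPL45 and MRPS21. These 2 were therefore not corrected in that fit, and both are among the 11 whose call was kept. Of the tested members 34 (45.3%) overlapped another gene of the table, against 35.4% of all tested genes, and 14 of the 22 that rose overlapped none.

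Mitoribosomal proteins whose symbols lie outside the MRPL and MRPS series were mixed, with 3 of 7 rising, 1 falling and a median log2 fold change of -0.04. Among all tested genes 12.8% rose and 11.3% fell. ICT1, a peptidyl-tRNA hydrolase built into the large subunit, rose from 859 and 881 normalised counts in RETi to 1012 and 1259 in RETi + FGFRi (log2 fold change 0.38, SE 0.10, edgeR adjusted p = 0.021). CHCHD1 (log2 fold change 0.37, SE 0.089) and MRP63 (0.27, edgeR adjusted p = 0.040) rose too. DAP3, a GTP-binding protein of the small subunit, fell from 4813 and 4400 to 3723 and 3972 (log2 fold change -0.26, SE 0.078, edgeR adjusted p = 0.033), and its row overlaps MSTO1 and YY1AP1. AURKAIP1, PTCD3 and GADD45GIP1 were not called. The calls of ICT1, MRP63 and DAP3 were each lost in 3 of the 4 fits that leave out a library, with adjusted p of up to 0.0997 for ICT1, 0.189 for MRP63 and 0.304 for DAP3, and that of CHCHD1 without RETi replicate 2 (0.0986).

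Genes that build or run the mitoribosome had medians near 0, with changes in both directions. Assembly factors were called higher in 7.69% and lower in 3.85% of cases, both below the 12.8% and 11.3% of all tested genes. Translation factors and mRNA partners were called higher in 13.3%, near the share of all genes. Of 26 assembly factors 2 rose (MALSU1 and MTERFD2) and 1 fell (MPV17L2), at a median log2 fold change of 0.04, and DESeq2 called none of them in either direction (at an unadjusted p under 0.05, edgeR had 5 higher and 3 lower). Of 15 translation factors and mRNA partners 2 rose, with a median of 0.06. They were MTRF1, a release factor (log2 fold change 0.38, SE 0.12), and SLIRP, which stabilises mitochondrial mRNAs (0.33, SE 0.089). With the length and GC trend removed SLIRP turned to -0.10 (edgeR adjusted p = 0.40), and its call was also lost on leaving out either RETi library (adjusted p of up to 0.156) or RETi + FGFRi replicate 2 (0.0918). MTRF1 was not called by DESeq2 (adjusted p = 0.092). The elongation factor GFM1 was not called (-0.22, edgeR adjusted p = 0.056), but it was called lower with the length and GC trend removed (adjusted p = 0.015).

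Among 11 tested regulators of mitochondrial transcription and biogenesis the median log2 fold change was -0.16, and only MYC was called. That is 9.09% called lower, against 11.3% of all tested genes. MYC, a transcription factor that reads E-boxes, fell from 2553 and 2610.3 normalised counts in RETi to 2064 and 2116 in RETi + FGFRi (log2 fold change -0.31, SE 0.072, edgeR adjusted p = 0.012), a call lost without RETi replicate 1 (0.060) or RETi replicate 2 (0.098). Besides MYC, those whose motifs were searched were not called. Their log2 fold changes were -0.16 (SE 0.11) for NRF1, 0.12 (SE 0.078) for GABPA, the DNA-binding subunit of GABP, and -0.20 (SE 0.074) for YY1. ESRRA (-0.25, SE 0.094), POLRMT, the mitochondrial RNA polymerase (-0.27, SE 0.092), and TFAM, which packages mitochondrial DNA (0.07, SE 0.076), were not called either. POLRMT was called lower without RETi + FGFRi replicate 1 (edgeR adjusted p = 0.016) and YY1 without RETi + FGFRi replicate 2 (0.036). The coactivator PPARGC1A was below the filter, at 11.6 and 7.18 normalised counts in the group means.

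The mRNAs that the mitoribosome translates had a larger median change than the mRNAs of its own proteins, a difference that was not tested. Of the 13 mitochondrially encoded mRNAs 11 rose (84.6%, against 12.8% of all tested genes), with a median log2 fold change of 0.41. MT-ND5 (0.56, SE 0.097), MT-ND6 (0.47, SE 0.083) and MT-ND2 (0.47, SE 0.083), all subunits of complex I, had the smallest p. With the length and GC trend removed MT-ND6 was not called (0.13, edgeR adjusted p = 0.37). Their summed level was 13771 and 15551 CPM in RETi and 19570 and 18693 in RETi + FGFRi. Here RETi + FGFRi replicate 2 was not the higher library, with a median log2 ratio to replicate 1 of -0.08 where the members had 0.18.

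**Figure D5:**
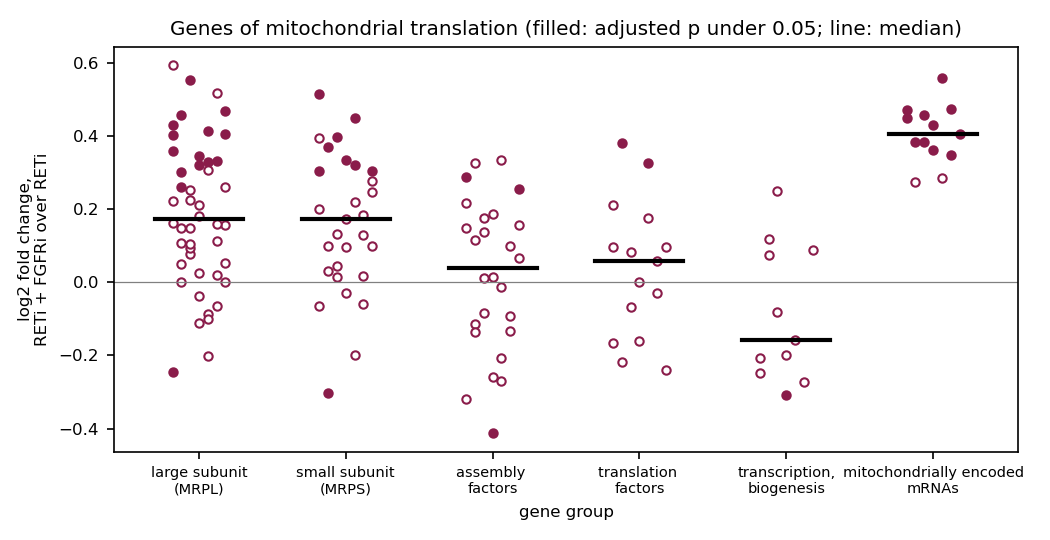
Log2 fold change of RETi + FGFRi over RETi for each tested gene of the large and small subunits, assembly factors, translation factors, regulators of transcription and biogenesis, and mitochondrially encoded mRNAs, with filled points for an adjusted p under 0.05 and a line at the median. The medians are 0.17 in each subunit, 0.04 and 0.06 in the factors, -0.16 in the regulators and 0.41 in the mitochondrially encoded mRNAs.

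Cytosolic ribosomal protein genes showed a larger rise in the same libraries, with 54 of 77 tested genes rising and a median log2 fold change of 0.46. Their summed level was 47873 and 49109 CPM in RETi and 59587 and 74152 in RETi + FGFRi, and the median log2 ratio of RETi + FGFRi replicate 2 to replicate 1 was 0.31. Among all tested genes 12.8% rose and 11.3% fell. Nuclear genes for complex I subunits lay between the cytosolic and mitochondrial ribosomal protein genes, with 16 of 36 rising, 2 falling and a median of 0.27. The mitochondrial ribosomal proteins thus had the lowest median of these 3 nuclear groups, at 0.17. Fewer cells of a kind and less RNA per cell cannot be told apart in these bulk libraries.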

How the data were processed

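Groups and replicate numbers came from the labels. Per the labels and the submitters' processing notes, libraries were TruSeq RNA, run single-end on a HiSeq, and STAR 2.3, DESeq2 and hg19 were used. The methods of the study instead describe paired-end sequencing and a newer STAR. How reads were counted, and whether by strand, was not given in the sources used here. For each gene and library the authors deposited the raw count. They also deposited a normalised count, a signal made by dividing raw counts by a library's factor (0.944 to 1.04). They also deposited a mean, a log2 fold change, its error and p-values from their own comparison, which were not used.

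Raw counts of all 20372 genes were fitted with edgeR 4.0.16 in R 4.3.3 (TMM, filterByExpr with a minimum count of 10, quasi-likelihood F test, no covariates, 4 libraries), with Benjamini-Hochberg adjustment over 12794 tested genes. The fit had 2 residual and 8.96 prior degrees of freedom, and the SE was taken as the log2 fold change over the root of F. The script was tested on simulated data. Levels in the text are the deposited normalised counts, and CPM used TMM library sizes. Alternatives were DESeq2 1.42.0 and its size factors, no filter, each library left out, the replicate number as a block, a length and GC trend removed (GENCODE v44 transcripts matched by gene ID), members that overlap no other gene, and subunits by place. Coordinates of rows are those of the deposited table (hg19, 1-based). Promoters were taken from RefSeq by symbol and are in GRCh38.p14.

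Members and lists were chosen with earlier results of these data known, so no p was computed for a list. Genes named were the 6 largest called rises and up to 6 falls without overlap between groups, the highest per kilobase in each class, the 3 smallest changes, rows below the filter, a fixed set of members and regulators, and up to 3 genes per list with the smallest p. MRPL53, MRPL38, MRPS11 and the other called members were named after their values were seen, as were the first members outside the threshold.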

Additional observations from a re-analysis of the deposited data

How the results depend on the processing

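With a trend on transcript length and GC content removed, 12 of 75 tested members were called higher, 5 of 46 MRPL and 7 of 29 MRPS genes. The 12 include MRPL45 and MRPS21, which had no length or GC value and were not corrected. In that fit 2 MRPL genes were called lower, and 13.1% of all tested genes were called higher and 11.9% lower. The share of MRPL genes called higher was below that of all tested genes, and that of MRPS genes was above it. Medians in that fit were 0.0689 over all members, 0.069 over MRPL and 0.0519 over MRPS genes. Among members that overlap no other gene, 14 were called higher, 8 of them MRPL genes. Members called lower numbered 1 with DESeq2 size factors, 1 without a filter and 1 with DESeq2, and MRPL genes called lower numbered 0 in each of these fits, where 2 had an unadjusted p under 0.05. Leaving out 1 library at a time gave 5 to 39 members higher and 0 to 3 lower, 3 to 24 MRPL genes higher and 0 to 2 lower, 2 to 15 MRPS genes higher and 0 to 1 lower, and a median of 0.10 to 0.27 for MRPL genes. Counts of 0 lower came from edgeR without RETi replicate 1 or RETi replicate 2, where 2 and 1 members were lower at an unadjusted p under 0.05, and for MRPL genes also without RETi + FGFRi replicate 1, where 1 was. Where 1 library remained in a group, its spread was taken from the other group.

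Labels give replicate numbers but do not say that they mark a shared batch, and same-numbered libraries did not deviate together (correlation 0.025). A replicate block gave 27 members higher and 2 lower (16.0% and 13.6% of all tested genes), and the 22 were among the 27. It also called POLRMT (adjusted p = 0.022) and GFM1 (0.041) lower.

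The rise called for SLIRP turned to -0.0967, not called, with the length and GC trend removed. Other changes of sign were of genes not called with all 4 libraries. With that trend removed the log2 fold changes were -0.031 for TFAM, -0.0599 for MRPS26, -0.0433 for MRPS12, -0.0284 for MRPL44, 0.00103 for GADD45GIP1 and -0.177 for MRPL23. MRPL52 was 0.00828 with DESeq2 size factors, 0.00323 with DESeq2 and 0.00108 with the block, and MRPL23 was -0.00326 without a filter and -0.00162 with the block. Leaving out 1 library gave -0.024 to 0.401 for MRPS18A, -0.0891 to 0.122 for MRPS26, -0.0622 to 0.155 for MRPS12, -0.146 to 0.0631 for PTCD3, -0.103 to 0.144 for MRPL44, -0.0693 to 0.0781 for MRPL52, -0.195 to 0.114 for GADD45GIP1, -0.0463 to 0.243 for MRPS18B, -0.119 to 0.123 for MRPL23 and -0.300 to 0.0621 for MRPL12. Of these, MRPS18A (0.401) and MRPS18B (0.243) were called without RETi + FGFRi replicate 1, and the others in none of these fits.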

Other observations

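Members often shared their start region with another gene. A neighbour on the opposite strand with its start within 1000 bases was found for 17 of 75 tested members (22.7%), against 10.8% of all tested genes, and for 9 of the 22 members that rose. Of the 16 neighbours of tested members that were themselves tested (with MRPL46 and MRPS11 counted for each other), 6 rose and 1 fell. Of all tested genes 12.8% rose and 11.3% fell. Both genes rose in 4 cases, where the MRPL46 and MRPS11 pair was again counted from each side. MRPL47 and NDUFB5, a complex I subunit, start 36 bases apart, and both rose, NDUFB5 with a log2 fold change of 0.61 (edgeR adjusted p = 0.0031). MRPS18C and the helicase HELQ start 76 bases apart, and HELQ rose by 0.35 (edgeR adjusted p = 0.036). MRPL36 and NDUFS6, also of complex I, start 34 bases apart and moved in opposite directions, since NDUFS6 fell (log2 fold change -0.31, edgeR adjusted p = 0.026). MRPS34, which fell, starts 52 bases from EME2, which was not called (0.24). These neighbours were named after their values were seen. Distances between starts used the row ends of the deposited table (hg19), whereas the promoters used RefSeq starts (GRCh38.p14), and the starts were not compared. The MRPL36 row ends at chr5:1801480 (hg19), and its printed promoter lies at chr5:1799838-1799937 (GRCh38.p14). That promoter may therefore not be the region shared with NDUFS6.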
